A study of Mus musculus with 23 samples.

Results

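Expression of 10 genes that mark the epithelial or the mesenchymal state of a cell was followed in mouse embryonic stem cells (ESCs), before and after removal of the DNA binding domain of KDM2B. The genes were chosen by name: Cdh1 and Epcam for the epithelial state, Cdh2, Vim and Fn1 for the mesenchymal state, and the transcription factors Snai1, Snai2, Zeb1, Zeb2 and Twist1, which are 10 of the 23369 gene names in the deposited expression tables. RNA-seq was performed on 3 untreated samples and on 3 samples exposed to 800 nM 4-hydroxytamoxifen for 72 hr, and replicates are numbered 1 to 3 in both groups. All 6 samples came from the same line, MS12 Kdm2b fl/fl at passages p10-p20, in which loxP sites flank an exon that codes for most of the ZF-CxxC domain, and which carries the tamoxifen-inducible recombinase ERT2Cre at Rosa26. The untreated samples therefore carried the floxed alleles and the recombinase as well, a vehicle control is not given in the sources used here, and there were no tamoxifen-treated cells without floxed alleles among the RNA samples, so that an effect of tamoxifen or Cre and an effect of the deletion cannot be told apart. The line was grown on mitomycin C inactivated mouse embryonic fibroblasts and was plated without these feeders overnight before treatment.

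The labels decided the group of each sample. File names assign all 6 samples the other way round, and under that reading every difference between treated and untreated samples below would change its sign with its size and p-value unchanged. The Kdm2b row counts the whole gene, does not resolve the floxed exon and so does not settle the reading: its level was 25.4 ± 3.36 FPKM (SD, n = 3) in untreated and 22.3 ± 2.60 FPKM (n = 3) in tamoxifen samples.

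Epithelial cells are held together by E-cadherin, the product of Cdh1, and in an epithelial-mesenchymal transition they lose this protein, gain N-cadherin from Cdh2 and build up vimentin and fibronectin. The SNAI and ZEB zinc finger proteins and the basic helix-loop-helix protein TWIST1 drive this transition, the zinc finger proteins by binding short DNA elements called E-boxes in promoters such as that of Cdh1. Naive ESCs are epithelial in this sense and grow as compact, E-cadherin-positive colonies, whereas the fibroblasts on which they are cultured are mesenchymal. KDM2B binds nonmethylated CpG dinucleotides through its ZF-CxxC domain and brings a variant polycomb repressive complex 1 (PRC1) to CpG islands, the CpG-rich promoters of many developmental genes.

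Levels are given as FPKM, fragments scaled to the length of the transcript and to the number of mapped fragments, a scale on which different genes can be compared. Differences are given on the scale of log2(FPKM + 0.1), tamoxifen minus untreated, which understates the change of genes with a low level. The groups were compared with limma over the 12997 genes that reached 0.5 FPKM in at least 3 samples, and all 10 members passed this filter. Without the replicate number in the fit, 4 of 12997 genes were called at an adjusted p under 0.05 (0.0308%), 3 higher (0.0231%) and 1 lower (0.00769%), and none of the 10 members was among them. At an unadjusted p under 0.05 the same fit held 623 of the 12997 genes, of which Twist1 was the only member. This share is itself under 0.05, the share that such a threshold passes when no gene differs. Samples that share a replicate number deviated together, and with the number as a block limma called 1350 genes (10.4%), 563 higher (4.33%) and 787 lower (6.06%), including 0 members higher and 3 members lower (Cdh1, Cdh2 and Twist1). The share of higher genes among the blocked calls was 41.7% and moved with the scaling of the samples, to 56.1% after scaling to TPM, on which every sample sums to the same total, and to 26.1% when loci under 300 bp were left out of that scaling. The direction of the 3 called members was the same under every scaling.

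**Figure D1:**
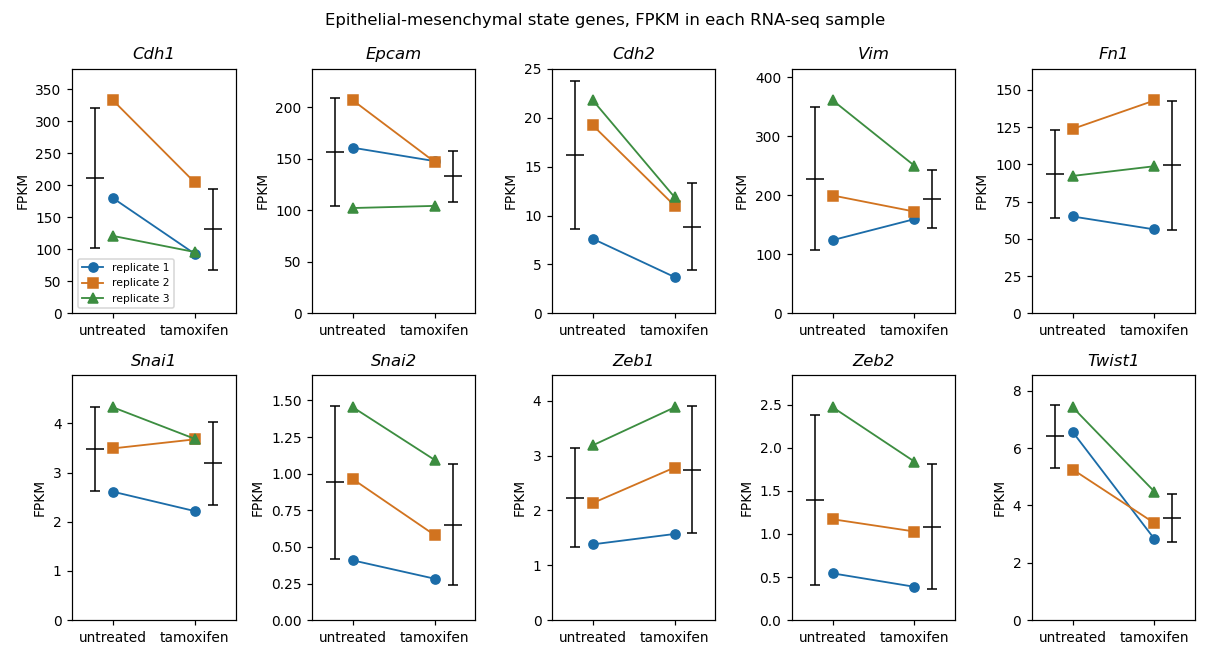
FPKM (y axis, linear, from 0) of each of the 10 genes in the untreated and tamoxifen samples. Lines join samples with the same replicate number, and the horizontal marks with bars are group means ± SD (n = 3). The lines of Cdh1, Cdh2, Snai2, Zeb2 and Twist1 slope down in all 3 replicates and that of Zeb1 slopes up in all 3, while only for Twist1 do the groups not overlap.

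Of the epithelial genes, Cdh1 stood at 180, 333 and 121 FPKM in untreated replicates 1, 2 and 3, and at 92.9, 204 and 95.7 FPKM in the tamoxifen samples. Replicate 2 was the highest sample in both groups, the ranges overlapped, and each tamoxifen sample lay below the untreated sample of its own number. The group means were 211 ± 109 and 131 ± 63.6 FPKM (SD, n = 3 each), a difference of -0.66 on the log2 scale (SE 0.44, adjusted p = 0.999 without the block). In the fit with the block Cdh1 fell by 0.66 (SE 0.13, 95% interval -0.96 to -0.37, adjusted p = 0.0206). This call was lost without replicate 2 (adjusted p = 0.142), without a filter on low values (0.0681) and without the mean-variance trend in limma (0.059). All 6 values of Cdh1, as of Epcam and Vim, lay above the upper bound of their own deposited confidence interval.

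Epcam, which encodes the epithelial cell adhesion molecule, was found at 161, 206 and 102 FPKM in the untreated and at 148, 147 and 104 FPKM in the tamoxifen samples. The value of untreated replicate 2 stood above the other 5, and the remaining values of both groups lay in the same range. Means were 156 ± 52.3 and 133 ± 24.9 FPKM (n = 3 each), and the difference of -0.19 (SE 0.12 with the block, 95% interval -0.47 to 0.08) did not pass in either fit (adjusted p = 0.999 without and 0.30 with the block). Both epithelial genes were thus lower on average, but the drop that passed with the block was that of Cdh1. Whether Cdh1 and Epcam differ in their response was not tested.

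On mm9, Cdh1 spans chr8:109127268-109194146 and Epcam chr17:88035319-88050467. Because SNAI and ZEB proteins bind the E-box CACCTG, which reads CAGGTG on the other strand, promoters were searched for these letters on both strands. RefSeq promoter windows (GRCm38.p6, 250 bases before to 50 bases after the start) were matched for 5 of the 10 members, Epcam, Snai1, Twist1, Vim and Zeb2. The E-box was present 2 times in the window of Epcam and 1 time in that of Snai1, and no match was found in those of Twist1, Vim and Zeb2. At least 1 E-box is held by 20.2% of all 32851 promoter windows and 2 or more by 2.88%. The matches are shown with 12 bases on each side and the E-box in capitals, since Epcam and the factor gene Snai1 itself both carry the element that these factors read. They lie 187 and 19 bases before the start of Epcam, at chr17:87635780-87635809 and chr17:87635948-87635977, and 126 bases before that of Snai1, at chr2:167538057-167538086 (all + strand).
Epcam, distal: gccagtagggccCACCTGctggaggaccgg
Epcam, proximal: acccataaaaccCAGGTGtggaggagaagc
Snai1: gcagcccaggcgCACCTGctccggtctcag

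Of the mesenchymal genes, Cdh2 had 7.61, 19.2 and 21.8 FPKM in untreated replicates 1 to 3 and 3.71, 11.02 and 11.9 FPKM in the tamoxifen samples. Replicate 1 was the lowest of its group each time, and the tamoxifen value was lower in 3 of 3 replicates, by 1.02, 0.80 and 0.87 on the log2 scale. The mean was 16.2 ± 7.55 FPKM in untreated and 8.87 ± 4.49 FPKM in tamoxifen samples (SD, n = 3), 1.83-fold lower. Without the block the spread between replicates was too wide for a call (-0.89, SE 0.52, adjusted p = 0.999). With the block Cdh2 fell by 0.89 (SE 0.11, 95% interval -1.14 to -0.65, adjusted p = 0.00465), which was the smallest adjusted p among the 10 members. Leaving out replicate 2 ended this call as well (adjusted p = 0.0613).

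Vim, the intermediate filament gene of mesenchymal cells, was at 124, 200 and 361 FPKM in untreated and at 160, 172 and 250 FPKM in tamoxifen samples. Replicate 3 was highest in both groups, and the difference changed its direction between replicates, with +0.36 in replicate 1, -0.21 in replicate 2 and -0.53 in replicate 3. The means of 228 ± 121 and 194 ± 49.0 FPKM (n = 3 each) differed by -0.13 (SE 0.16 and 95% interval -0.50 to 0.25 with the block, adjusted p = 0.627, and 0.999 without).

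Fn1, which encodes the matrix protein fibronectin, had values of 65.0, 124 and 92.2 FPKM in untreated and 56.3, 143 and 98.7 FPKM in tamoxifen samples. In both groups replicate 1 was lowest and replicate 2 highest, and the groups overlapped fully. The means were 93.6 ± 29.4 and 99.3 ± 43.3 FPKM (n = 3 each), a difference of 0.03 (SE 0.11 and 95% interval -0.22 to 0.28 with the block, adjusted p = 0.864) whose sign turned under quantile normalization (-0.02) and under TPM without loci under 300 bp (-0.06). Thus, Cdh2 was the mesenchymal gene that changed in the fit with the block, and it fell. Cdh2 lies at chr18:16747386-16967558, Vim at chr2:13495938-13504453 and Fn1 at chr1:71632047-71699808 on mm9.

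The relation between both cadherins was described as a ratio of their FPKM. Cdh1 exceeded Cdh2 by 23.6, 17.3 and 5.55 times in untreated replicates 1, 2 and 3, and by 25.1, 18.6 and 8.05 times in the tamoxifen samples. In each replicate the ratio was slightly higher with tamoxifen, and this step was smaller than the gap between replicate 3 and the other replicates in either group. The ratio of Vim to Epcam was 0.772, 0.966 and 3.53 in untreated and 1.08, 1.17 and 2.40 in tamoxifen samples, again with replicate 3 apart, and with a tamoxifen value above the untreated one in replicates 1 and 2 and below it in replicate 3. In these bulk samples, fewer cells of a type and less RNA per cell cannot be told apart.

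Among the transcription factors, Twist1 was the only gene, and the only one of the 10 members, whose groups did not overlap. It was measured at 6.56, 5.25 and 7.42 FPKM in untreated and at 2.83, 3.39 and 4.49 FPKM in tamoxifen samples. Every tamoxifen sample lay below every untreated sample, as was so for 5.4% of all genes tested, and no member showed the reverse, which 3.09% of all genes did. The means were 6.41 ± 1.09 and 3.57 ± 0.841 FPKM (SD, n = 3), 1.80-fold lower. The difference of -0.84 had an SE of 0.27 and an unadjusted p of 0.0124 in limma without the block, and its adjusted p of 0.676 did not pass. With the block Twist1 fell by 0.84 (SE 0.15, 95% interval -1.18 to -0.50, adjusted p = 0.0161), by 1.18, 0.62 and 0.71 in replicates 1, 2 and 3. As for the other 2 calls, this one was lost without replicate 2 (adjusted p = 0.0922), and it was also lost without a filter on low values (0.0585).

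Twist1 (mm9 chr12:34642536-34644696) is a developmental gene with a CpG-rich start. Its RefSeq window, chr12:33957421-33957720 on GRCm38.p6 (+ strand), holds 27 CpG dinucleotides, more than 84.5% of all windows, whose median is 7. The window of Epcam, chr17:87635729-87636028 (+ strand), holds 11, more than 58.6%. Both are shown with CpG in capitals, the dinucleotide that the ZF-CxxC domain recognizes, for a factor and for an epithelial gene. The Snai1 window holds 34 (more than 92.3% of windows), that of Vim 11, and the 4 windows of Zeb2 between 8 and 19. A CpG count describes these letters only, and occupancy by KDM2B or PRC1 was not analysed here. Whether the CpG count goes with the difference between the groups was not tested.
Twist1: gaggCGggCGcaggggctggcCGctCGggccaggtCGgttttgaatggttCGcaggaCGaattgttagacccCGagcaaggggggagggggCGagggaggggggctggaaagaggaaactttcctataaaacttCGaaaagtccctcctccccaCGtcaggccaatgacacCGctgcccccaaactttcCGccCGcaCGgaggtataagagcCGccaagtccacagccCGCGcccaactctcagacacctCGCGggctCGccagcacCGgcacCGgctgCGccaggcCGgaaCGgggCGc
Epcam: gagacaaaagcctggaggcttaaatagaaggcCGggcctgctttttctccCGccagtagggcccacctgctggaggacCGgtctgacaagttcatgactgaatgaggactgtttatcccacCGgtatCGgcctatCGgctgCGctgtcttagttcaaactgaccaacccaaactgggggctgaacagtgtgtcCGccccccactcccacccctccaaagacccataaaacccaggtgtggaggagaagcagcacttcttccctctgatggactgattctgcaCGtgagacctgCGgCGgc

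Snai1, the founding member of the Snail repressors, had 2.61, 3.49 and 4.33 FPKM in untreated and 2.22, 3.68 and 3.69 FPKM in tamoxifen samples. The values overlapped, replicate 1 was lowest in both groups, and 2 of 3 replicates were lower with tamoxifen. The difference was -0.13 (SE 0.14 and 95% interval -0.45 to 0.20 with the block, adjusted p = 0.568). Its paralog Snai2, also known as Slug, was the lowest of the 10 genes, at 0.408, 0.962 and 1.45 FPKM in untreated and 0.283, 0.581 and 1.09 FPKM in tamoxifen samples. Each replicate was lower with tamoxifen, by 0.41, 0.64 and 0.38, but the mean difference of -0.48 (SE 0.22, 95% interval -0.99 to 0.04) did not pass (adjusted p = 0.194 with the block).

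Zeb1 was the only member with a higher value in all 3 tamoxifen samples than in the untreated samples of the same number, a pattern shared by 24.8% of all genes tested. It was at 1.38, 2.14 and 3.19 FPKM in untreated and 1.57, 2.78 and 3.88 FPKM in tamoxifen samples, so that the step between replicate numbers was larger than the step between groups. The difference of 0.27 (SE 0.15, 95% interval -0.07 to 0.61) did not pass (adjusted p = 0.250 with the block). Its paralog Zeb2 had 0.543, 1.17 and 2.47 FPKM in untreated and 0.387, 1.03 and 1.84 FPKM in tamoxifen samples, lower in 3 of 3 replicates, with a difference of -0.33 (SE 0.19, 95% interval -0.77 to 0.12, adjusted p = 0.290 with the block). The direction of Zeb1 was thus opposite to that of Zeb2 in each replicate, and the difference between their responses was not tested.

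The mm9 loci of the zinc finger genes are chr2:167363727-167368311 for Snai1, chr16:14705952-14709475 for Snai2, chr18:5591858-5775466 for Zeb1 and chr2:44839154-44968799 for Zeb2. Other annotated genes overlap Zeb1 (Gm10125) and Zeb2 (Gm13476 and Mir5129), and how fragments in the overlaps were shared out is not given in the sources used here. The summed level of the 5 factors was 11.5, 13.0 and 18.9 FPKM in untreated and 7.3, 11.5 and 15.0 FPKM in tamoxifen samples. In each replicate the sum was lower with tamoxifen, and in each group it was highest in replicate 3. In all, 5 of 10 members were lower in 3 of 3 replicates, where 28.2% of all genes tested were, and the median difference of the 10 was -0.26 beside -0.02 for all genes tested.

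**Figure D2:**
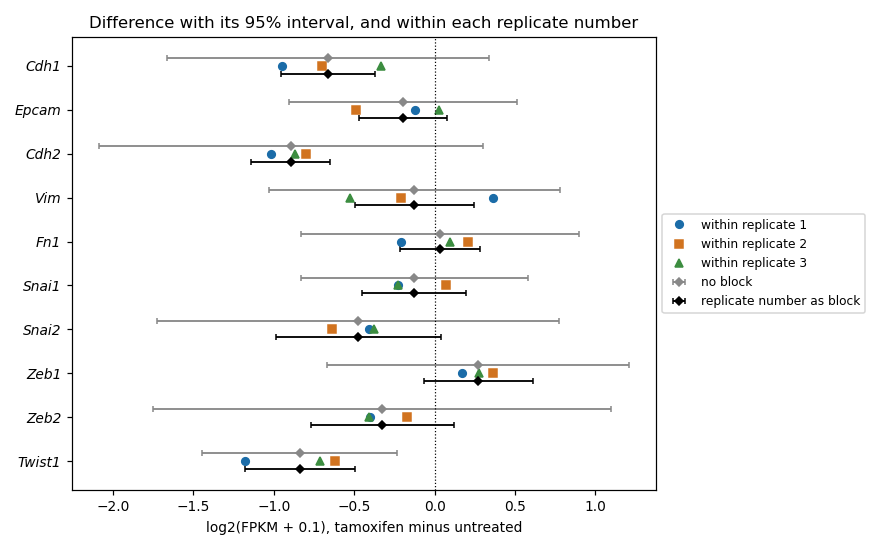
Difference in log2(FPKM + 0.1), tamoxifen minus untreated (x axis), for the 10 genes. Coloured points are the differences within replicates 1, 2 and 3, and diamonds with bars are the limma estimates with 95% intervals without (grey) and with (black) the replicate number as a block. Among the black intervals, those of Cdh1, Cdh2 and Twist1 lie wholly below 0, and those of the other 7 genes include 0.

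By level, the 10 genes formed the same broad tiers in both groups. Among untreated samples the order of the means ran from Vim (228 FPKM), Cdh1 (211), Epcam (156) and Fn1 (93.6), whose ranges overlapped from each gene to the next, to Cdh2 (16.2), whose range touched neither that of Fn1 nor that of Twist1 (6.41). Twist1 was set apart from Snai1 (3.48), and Snai1, Zeb1 (2.24), Zeb2 (1.39) and Snai2 (0.941) again overlapped from each to the next. With tamoxifen the order was Vim (194), Epcam (133), Cdh1 (131), Fn1 (99.3), Cdh2 (8.87), Twist1 (3.57), Snai1 (3.19), Zeb1 (2.75), Zeb2 (1.08) and Snai2 (0.653). Here gaps between neighbours in the order were seen between Vim and Epcam and between Fn1 and Cdh2, and Twist1 now overlapped both Cdh2 and Snai1. Vim (160 to 250 FPKM) did overlap Cdh1 (92.9 to 204 FPKM), which comes after Epcam. Epithelial Cdh1 and Epcam were therefore found at levels above 90 FPKM in every sample, beside mesenchymal Vim, which was above 120 FPKM in every sample, and with all 5 factors under 8 FPKM.

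The 6 samples differed by replicate number more than by treatment. An F test of the replicate number in limma, with treatment in the model, called 9 of the 10 members, where 62.8% of all genes tested were called. Twist1 was the member that did not pass (adjusted p = 0.101), although it did after scaling to TPM (0.0125). Both replicate 1 samples lay below the other 4 for 7 of the 10 members, where 19.8% of all genes tested showed this. What a replicate number stands for (a culture, a day or a library preparation) is not given in the labels.

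The pattern was not the same for epithelial and mesenchymal genes. Mean levels over both groups in replicates 1, 2 and 3 were 136, 269 and 108 FPKM for Cdh1 (adjusted p = 0.00218 in the F test) and 154, 177 and 103 FPKM for Epcam (0.00787). For Vim they were 142, 186 and 305 FPKM (0.00704), and for Fn1 60.6, 133 and 95.5 FPKM (0.00219). By these means the epithelial genes were thus lowest and Vim highest in replicate 3, while Fn1, like Cdh1, was highest in replicate 2. For Cdh1 the order of replicates 1 and 3 turned in the tamoxifen samples (92.9 and 95.7 FPKM). Its step from replicate 1 to replicate 3 was -0.27, and -0.57 after scaling to TPM. It was -0.06 under quantile normalization and -0.01 under TPM without loci under 300 bp. Cdh2 stood at 5.66, 15.1 and 16.8 FPKM (0.00122), 2.67 and 2.97 times higher in replicates 2 and 3 than in replicate 1.

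The widest range was that of Zeb2, with means of 0.465, 1.10 and 2.15 FPKM in replicates 1, 2 and 3 (adjusted p = 0.00224), a 4.63-fold step from replicate 1 to replicate 3. Among the other zinc finger genes, Snai2 had means of 0.345, 0.772 and 1.27 FPKM (0.00558, 3.69-fold) and Zeb1 of 1.48, 2.46 and 3.54 FPKM (0.0039, 2.39-fold). Snai1 had means of 2.42, 3.59 and 4.01 FPKM (0.0182). All 4 zinc finger genes therefore had their lowest level in replicate 1 and their highest in replicate 3, in untreated and tamoxifen samples alike. These p-values measure the spread between 6 samples, and the direction of the step from replicate 2 to replicate 3 was the same under all 4 scalings for each of the 10 members. The step from replicate 1 to replicate 2 was not, since after scaling to TPM, which shifted the median of all genes by -0.80 in that step (-0.05 without it), Epcam (-0.58), Vim (-0.36), Snai1 (-0.18) and Zeb1 (-0.03) turned negative, and the F test of Fn1 (adjusted p = 0.209) and of Snai1 (0.212) no longer passed.

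**Figure D3:**
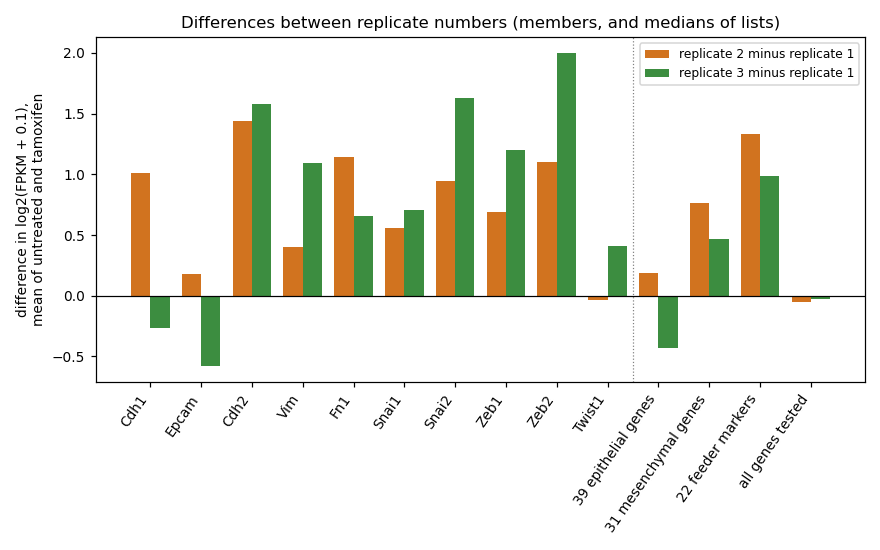
Difference in log2(FPKM + 0.1) between replicate numbers, averaged over untreated and tamoxifen samples (y axis), for the 10 genes and for the medians of 3 gene lists and of all genes tested. Orange bars are replicate 2 minus 1 and green bars replicate 3 minus 1. Cdh1 and Epcam have green bars below 0, the other 8 members above 0, and the feeder fibroblast markers have the highest orange bar among the lists.

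Markers of the feeder fibroblasts moved with the replicate number too. Over a list of 25 fibroblast genes, of which 22 were tested, the summed level was 160.3, 411.2 and 346.2 FPKM in untreated replicates 1, 2 and 3 and 144.7, 339.6 and 315.9 FPKM in the tamoxifen samples. Both replicate 1 samples were lowest for 18 of the 22 genes, where 19.8% of all genes tested showed this. Of the 25, 3 stayed under 0.5 FPKM in every sample. S100a4, the most abundant gene of the list, stood at 51.7, 123 and 138 FPKM in untreated and at 39.7, 85.8 and 122 FPKM in tamoxifen samples. Fstl1 had 27.9, 48.7 and 31.4 FPKM in untreated and 24.9, 42.2 and 35.9 FPKM in tamoxifen samples. Col1a1, a chain of type I collagen that fibroblasts secrete, stood at 15.6, 40.3 and 31.2 FPKM in untreated and at 19.3, 38.2 and 29.7 FPKM in tamoxifen samples. From replicate 2 to replicate 3 the median fibroblast marker went down by 0.33 (up by 0.10 after scaling to TPM). In this step 17 of the 22 markers went down and 5 went up, beside 5435 down and 7562 up among all 12997 genes tested. S100a4 was among the markers that went up (0.34). In the same step 7 of the 10 members went up and 3 went down. Vim went up by 0.70, Zeb1 by 0.51, Zeb2 by 0.90 and Cdh2 by 0.14, while Fn1 went down by 0.48. The part of feeder RNA in the differences between replicate numbers was not tested. Between the groups, 1 of the 22 markers passed with the block and was lower (4.55%), beside 6.06% lower and 4.33% higher among all genes tested. It was Fbln2, a matrix protein gene (31.8 ± 17.9 FPKM in untreated and 24.7 ± 15.5 FPKM in tamoxifen samples, n = 3 each, -0.43, adjusted p = 0.0463). The differences of the list ran from -0.85 (Lox) to 0.655 with a median of -0.14. Within replicates, 10 of the 22 markers were lower and 1 was higher in 3 of 3, beside 28.2% and 24.8% of all genes tested. The part of feeder RNA in the differences of the members between the groups was not tested either.

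The wider gene programs of both states were described by lists of further epithelial, mesenchymal and regulator genes that hold none of the 10 members. No gene of these 3 lists was called without the block. Of 39 epithelial genes tested with the block, 9 were lower (23.1%), 2 were higher (5.13%) and 28 did not pass, beside 6.06% lower and 4.33% higher among all genes tested. The median difference of the list was -0.21. The count depended on the setting, as did that of all genes tested, with 43 to 1190 lower over the alternatives with the block. In the list, 3 were lower and 2 higher after scaling to TPM, and 3 lower and 1 higher without a filter on low values. Without the trend 4 were lower and 1 was higher. Under a filter of 1 FPKM in all samples and under TPM without loci under 300 bp, 16 list genes were lower. Those that were lower included St14, the gene of the membrane protease matriptase, at 38.5, 45.8 and 23.8 FPKM in untreated and 23.5, 25.6 and 13.3 FPKM in tamoxifen samples (-0.79, adjusted p = 0.00462). Rab25, an epithelial vesicle traffic GTPase, was one that rose, from 6.94, 3.16 and 1.98 to 11.5, 5.93 and 4.46 FPKM (0.91, adjusted p = 0.0101). The most abundant genes of the list, Ctnnb1 (0.01, adjusted p = 0.967) and Ctnna1 (-0.04, 0.851), which link cadherins to the cytoskeleton, and the protease inhibitor gene Spint2 (-0.36, 0.0964), did not pass.

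Of 31 mesenchymal genes tested with the block, 10 were lower (32.3%), 1 was higher (3.23%) and 20 did not pass, with a median difference of -0.39. Here 6 were lower after scaling to TPM and without the trend, and 4 without a filter. Serpine2, a secreted protease inhibitor gene, fell from 35.5, 49.0 and 30.4 to 17.6, 23.0 and 14.7 FPKM (-1.05, adjusted p = 0.00289 with the block), and Cyr61, a matricellular target of YAP signalling, from 134, 143 and 93.1 to 64.9, 79.5 and 53.9 FPKM (-0.89, adjusted p = 0.0040). In both genes every tamoxifen sample lay below every untreated sample. This held for 4 of the 31 mesenchymal genes and for 5.4% of all genes tested. The most abundant mesenchymal genes did not pass with the block, namely Spp1 (osteopontin, 0.21, adjusted p = 0.221), Sparc (osteonectin, -0.14, 0.522) and Lgals1 (galectin-1, -0.19, 0.432). With the block, genes of the epithelial and of the mesenchymal list were thus both called lower in greater number than higher, by 3 against 2 for the epithelial list after scaling to TPM, and Cdh1 and Cdh2 were lower. These counts moved with each replicate left out, and so did that of all genes tested (43 to 1011 lower). Without replicate 2, 0 epithelial and 2 mesenchymal genes were lower, beside 43 of all genes tested. The lists had 5 and 5 lower without replicate 3, and 14 and 17 without replicate 1.

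Among 22 regulators of the transition, 2 were lower (9.09%), 1 was higher (4.55%) and 19 did not pass with the block, a share near that of all genes tested, and the median difference was -0.26. Snai3, the paralog of Snai1 and Snai2, had 8.08, 5.35 and 4.88 FPKM in untreated and 4.23, 3.24 and 2.66 FPKM in tamoxifen samples (-0.83, adjusted p = 0.0105 with the block). Unlike Snai1 and Snai2, it was highest in replicate 1. Klf8, a Krüppel-like factor, rose from 1.85, 3.27 and 3.33 to 3.62, 7.23 and 7.75 FPKM (1.08, adjusted p = 0.0047 with the block). The most abundant regulators, Tcf3 (an E protein partner of TWIST1, 0.26, adjusted p = 0.116) and the SMAD corepressors Ski (-0.32, 0.0737) and Skil (-0.20, 0.321), did not pass.

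**Figure D4:**
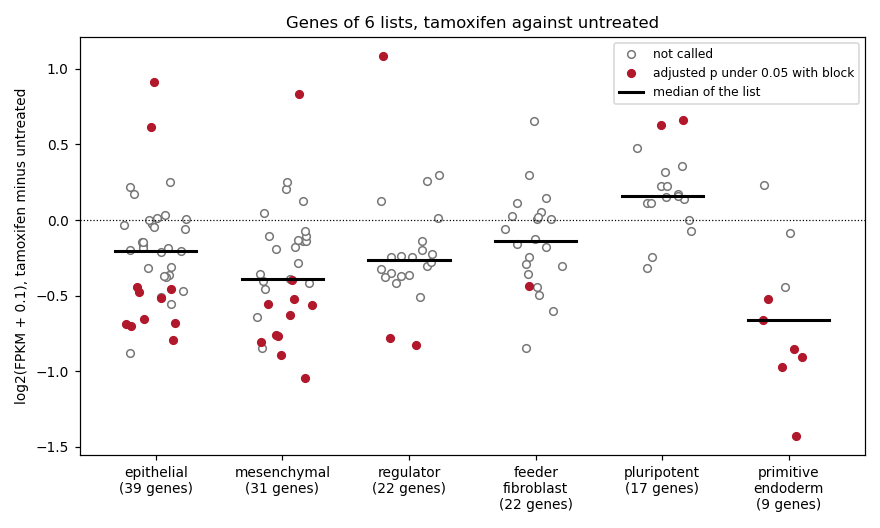
Difference in log2(FPKM + 0.1), tamoxifen minus untreated (y axis), for each tested gene of 6 lists, spread sideways for visibility. Filled points passed at an adjusted p under 0.05 with the replicate block, open points did not, and the bar is the median of the list. The epithelial list has 9 filled points below 0 and 2 above, and the mesenchymal list 10 below and 1 above.

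The genes whose profile over the 6 samples was most like that of Vim were Pik3r1, Dusp10, Zfp119a, Lgals8 and Tgfb2, with a mean absolute difference from it of 0.10 to 0.12 on the centred log2 scale, where the median of all genes was 0.51. Among the members, Snai2 (0.26), Zeb1 (0.27) and Snai1 (0.28) were nearest to Vim, and Cdh1 was farthest (0.88). Those most like Cdh1 were Atp2a3, Jag2, Slc2a1, Cdh24 and Tmc8 (0.10 to 0.11, median of all genes 0.64), and the nearest member was Epcam (0.35). All 5 genes like Cdh1 had their highest mean in replicate 2, which follows from their choice by likeness to Cdh1. For Slc2a1, the glucose transporter gene, the means were 456, 751 and 335 FPKM in replicates 1, 2 and 3. Likeness here is a description over 6 samples that share their replicate differences.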

How the data were processed

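RNA-seq was analysed in 3 untreated and 3 tamoxifen-treated samples, and the ChIP-seq samples of the series were not analysed here. Per the submitters' processing notes and the methods of the study, 51 bp paired reads of polyA-selected, directional libraries were aligned to mm9 with TopHat2 (0.5) and quantified with Cuffdiff (2.1.1) on refGene models. The authors deposited FPKM, already scaled to transcript length and to the number of mapped fragments, and each row adds an interval and a quality status. Depth cannot be read from FPKM. Steps in 1187 low genes gave depths of 0.654 to 0.953 relative to untreated replicate 1, with only 8.1% to 11% of these genes at the modal step. Between 11.1% and 13.5% of positive rows lay outside their own deposited interval, among them all 6 values each of Cdh1, Epcam and Vim, and no value of the other members. FPKM summed to 549379.4 to 1045707.3 per sample.

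FPKM was summed over rows that share a gene name, and 6 names with a failed status, none of them a member, were left out. Genes with at least 0.5 FPKM in at least 3 of 6 samples were tested by limma 3.58.1 on log2(FPKM + 0.1) (R 4.3.3, trend, Benjamini-Hochberg over all genes tested, threshold 0.05). The replicate number was added as a block because deviations from the group means correlated between samples of the same number (r = 0.544, 0.605 and 0.506). The negative values between other samples (-0.379 to -0.105) are no separate support, since deviations from a group mean cancel out within the group. Residual degrees of freedom were 4 without and 2 with the block. The methods of the study name biological triplicates, but the labels do not say whether replicates are separate cultures. The p-values therefore measure the spread between these samples. Members and lists were chosen with earlier results of these data known. Genes named from a list are its 3 most abundant and the 2 with the greatest change called with the block, and those named by likeness are the 5 nearest to Vim and to Cdh1. Lox, Prrx1, Twist2 and Pdgfra are named after their values were seen. Lists overlap in Lox and S100a4 (mesenchymal and fibroblast), Prrx1 and Twist2 (regulator and fibroblast) and Pdgfra (fibroblast and endoderm). Alternatives covered scaling, pseudocount, filter, trend, row choice and left-out replicates. Promoter windows came from RefSeq. For the dose, 800 nM is what the labels state, and the series text has the same figure in µM.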

Additional observations from a re-analysis of the deposited data

How the results depend on the processing

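With the replicate number as a block, in place of no block, 563 genes were called higher and 787 lower, with 3 members lower, and the lists gave 9 epithelial, 10 mesenchymal and 2 regulator genes lower and 2, 1 and 1 higher (all 0 without). Without the block, a pseudocount of 1 left 0 genes lower and a filter of 1 FPKM in all samples left 0 higher and 0 lower. Fn1 turned negative under quantile normalization (-0.0248) and under TPM without loci under 300 bp (-0.0551), in both fits. Leaving out 1 sample gave 2 to 5 genes higher, 0 to 7 lower and 0 members. It turned Fn1 (-0.28 to 0.39), Zeb1 (-0.0191 to 0.61), Epcam (-0.472 to 0.0351), Vim (-0.50 to 0.27), Snai1 (-0.31 to 0.11) and Zeb2 (-0.82 to 0.21), none of which was called.

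The alternatives with the block were chosen after seeing the data. No filter left 167 genes higher, 241 lower, 1 member lower (Cdh2), 3 epithelial and 4 mesenchymal genes lower and 1 and 0 higher. TPM gave 336 lower, with 3 epithelial, 6 mesenchymal and 0 regulator genes lower. No trend gave 328 higher, with 4 and 6 epithelial and mesenchymal genes lower and 1 and 0 higher. TPM without short loci, which shifted the median of all genes to -0.10, gave 1190 lower, with 16 epithelial and 4 regulator genes. The filter of 1 FPKM, which removed Snai2 and Zeb2, gave 16 epithelial and 5 regulator genes lower and 0 mesenchymal higher, as did a pseudocount of 0.01 and quantile normalization for the last. Leaving out a replicate number gave 36 to 744 genes higher, 43 to 1011 lower and 0 to 3 members lower, with 0 to 14 epithelial, 2 to 17 mesenchymal and 0 to 3 regulator genes lower and 0 to 2, 0 to 1 and 0 to 1 higher. Without replicate 2 no member was called (36 genes higher and 43 lower), Fn1 ranged from -0.054 (without replicate 2) to 0.152, and Vim from -0.37 to 0.0756 (without replicate 3). The cause of these changes was not tested. The directions of Cdh1, Cdh2 and Twist1 held under every alternative run.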

Other observations

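The ESC label was checked against 17 pluripotency genes, all of which were tested. Their summed level was 3254.3 to 4484.8 FPKM in untreated and 3689.4 to 6125.4 FPKM in tamoxifen samples. Pou5f1, the core pluripotency factor, stood at 690, 369 and 537 FPKM in untreated and at 832, 475 and 552 FPKM in tamoxifen replicates 1, 2 and 3. It was lowest in replicate 2, where Cdh1 was highest, a pattern not common to the 3 most abundant genes of the list. Over both groups, Dppa5a had means of 2878, 1598 and 1558 FPKM in replicates 1, 2 and 3, and Tdgf1 had 307, 539 and 306 FPKM. Tdgf1 was thus highest in replicate 2, as Cdh1 was. With the block 2 of the 17 were higher and 0 lower, where 4.33% and 6.06% of all genes tested were, with a median of 0.16 for the list. The higher genes were Tcl1 (0.66, adjusted p = 0.0135) and Klf2 (0.63, adjusted p = 0.0318).

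Of 14 genes of primitive or parietal endoderm, an extraembryonic lineage that lays down basement membrane, 9 were tested and 6 were lower with the block, where 6.06% of all genes tested were lower and 4.33% higher. Gata6, a founding factor of this lineage, had 1.13 ± 0.581 FPKM in untreated and 0.328 ± 0.0981 FPKM in tamoxifen samples (SD, n = 3, -1.43, adjusted p = 0.0174 with the block). The basement membrane genes Col4a1 (-0.97, adjusted p = 0.00334), Col4a2 (-0.91, 0.00453) and Lamb1 (-0.52, 0.0270) were also lower with the block. Across replicates 1, 2 and 3 the profiles differed, with means of 0.686, 0.410 and 1.09 FPKM for Gata6 and 15.2, 43.0 and 29.5 FPKM for Col4a1. Of the 9 tested, 7 were lower and 1 was higher in 3 of 3 replicates (28.2% and 24.8% of all genes tested). Another 5 of the 14 stayed under 0.5 FPKM in every sample. The summed level of the list was 83.8, 172.7 and 118.7 FPKM in untreated and 50.2, 101.9 and 76.1 FPKM in tamoxifen replicates 1, 2 and 3, and its part in the differences of Cdh2 and Fn1 was not tested. None of these genes was called without the block.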
